A study of Mus musculus with 2 samples.

Results

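Trophectoderm is the outer epithelium of the blastocyst and gives rise to the placenta. The 10 genes described here are 4 keratins of simple epithelia (Krt7, Krt8, Krt18 and Krt19) and 6 transcription factors that act in this lineage (Cdx2, Elf5, Tfap2a, Tfap2c, Hand1 and Rhox9). They were taken by gene symbol from the authors' table, in which all 10 were found among 23369 genes with a single symbol. The study used ES-D3 mouse embryonic stem cells of strain 129S2/SvPas, an established pluripotent line. The microchamber group was grown in a microfluidic chamber with minimal perfusion, and the plate group in a standard 6-well plate. Both started at 20000 cells per square centimetre and were kept for 3 days in 15% serum with 1000 U of leukaemia inhibitory factor (LIF), the cytokine that holds these cells undifferentiated. Each group had 1 Affymetrix Mouse Gene 2.0 ST array of total RNA, and no replicate.

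In the blastocyst, TEAD4 with the HIPPO-regulated co-activators YAP and TAZ drives CDX2, which opposes the pluripotency factor OCT4, while OCT4 in turn represses Cdx2 in embryonic stem cells. Keratins form filaments only as pairs of a type I and a type II chain. KRT8 and KRT7 are type II chains, KRT18 and KRT19 are type I chains, and the KRT8 and KRT18 pair is the main filament of trophectoderm and of other early simple epithelia, among them the extraembryonic endoderm.

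Values are the authors' log2 values from the RMA method, in which 1 unit is a doubling, and each difference is microchamber minus plate. The fold change in the authors' deposited table runs the other way. With 1 array per group the conditions could not be tested, so every difference describes these 2 arrays and has no p-value. Across the 19185 genes past a filter at the 20th percentile of each array, the middle 95% of differences lay between -0.61 and 0.58 and the median was -0.01. The standard deviation of differences was 0.13, 0.24, 0.36 and 0.35 in 4 equal groups of genes from lowest to highest level. The difference had a within-gene standard deviation of 0.20 over 904 genes with 2 probe sets, a measure of spread inside this pair of arrays and not between cultures.

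Krt19 was 2.53-fold lower in the microchamber, and Krt18, Tfap2c, Hand1 and Krt7 were lower by 1.55-fold to 1.32-fold, while Krt8, Cdx2 and Rhox9 were close to equal. All 10 genes lay at or above the 20th percentile on both arrays. In the microchamber 1 of the 10, Krt19, was at least 2-fold lower, against 0.443% of all genes past the filter, and 0 were at least 2-fold higher, against 0.344%. At a limit of 1.5-fold, 3 of the 10 were lower (Krt19, Krt18 and Tfap2c), against 2.76% of all genes, and 0 were higher, against 2.46%. Differences of 8 of the 10 lay below 0, against 52.3% of all genes, and the median of the 10 was -0.26. These figures rest on 5 genes with differences from -0.40 to -1.34, and the other 5 lay between -0.13 and 0.15. In a bulk RNA sample, fewer cells of a type and less RNA per cell cannot be told apart.

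**Figure D1:**
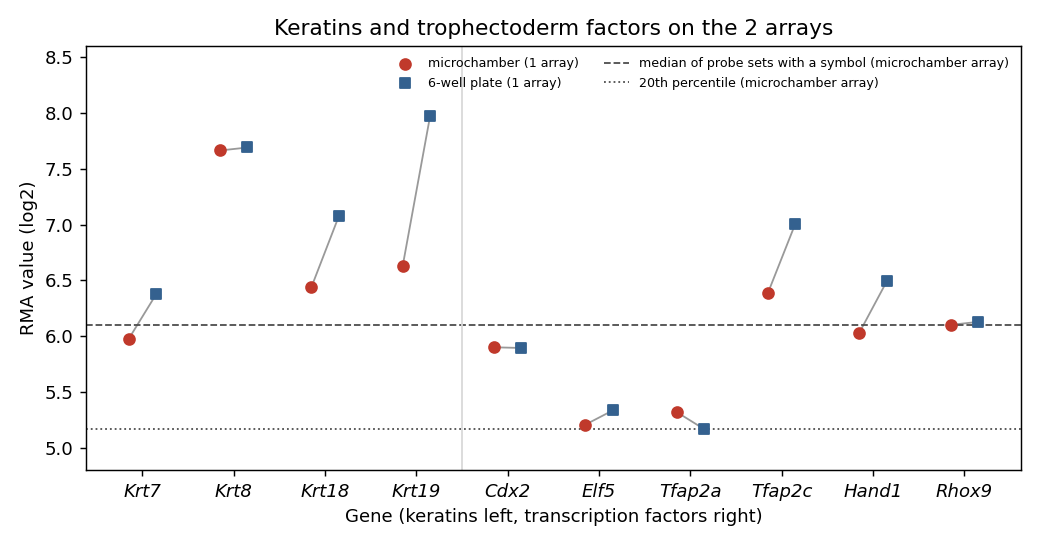
RMA values (log2) of the 10 genes on the microchamber array (red circles) and the 6-well plate array (blue squares), 1 array each, with the median and the 20th percentile of the microchamber array (probe sets that carry a gene symbol) as lines. Krt19 has the widest gap, 6.63 in the microchamber and 7.97 on the plate, while the values of Krt8, Cdx2 and Rhox9 almost meet.

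Krt19, a type I keratin that lacks the tail of other keratins, had a value of 6.63 in the microchamber and 7.97 on the plate, which is 2.53-fold lower (-1.34). A difference of that size or more was seen in 6 of the 1000 genes closest to it in mean level, and 38 of the 19185 genes had a lower difference. The gene lies on chromosome 11 (100140810 to 100145926, GRCm38). By position, its closest measured neighbours on either side are other keratins, and none of them approached its difference. Krt13 was at 0.09, Krt15 at 0.08, Krt9 at -0.08 and Krt14 at 0.04, all keratins of stratified or specialised epithelia with signal below the array median, and Krt15 did not pass the filter. The 3 genes closest to Krt19 in the plane of the 2 arrays' values were Ndrg1 (6.57 in the microchamber and 7.97 on the plate), Car12 (6.67 in the microchamber and 7.85 on the plate) and Khnyn (6.75 in the microchamber and 8.04 on the plate). This likeness is a distance over 2 arrays only.

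Krt18 had 2 probe sets. The brighter had 7.04 in the microchamber and 7.67 on the plate, and the dimmer had 5.84 in the microchamber and 6.48 on the plate. Their differences of -0.63 and -0.64 were close to each other, and the mean of both put Krt18 at 6.44 in the microchamber and 7.07 on the plate, 1.55-fold lower (-0.63). Of the 1000 genes closest in level, 69 were as far apart. The dimmer probe set carries the number 17322125, between those of Krt8 and Spryd3, and the authors' table gives no coordinates or strand for it.

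Krt8, the type II partner of KRT18, had 7.66 in the microchamber and 7.69 on the plate, a difference of -0.03. The Krt18 difference minus the Krt8 difference was -0.61, and with no replicate it is not known whether that gap would recur between cultures. Krt8 was the only keratin of the 4 whose difference was smaller than that of most genes of its level. Of the 1000 nearest genes, 925 differed at least as much. The Krt8 difference turned to 0.01 when a trend of difference on level was removed, so it has no settled direction. Krt8 rests on a single probe set, and keratin genes are related in sequence, so signal shared with other transcripts was not tested.

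Krt7, a type II keratin of glandular and trophoblast epithelium, had 5.98 in the microchamber and 6.38 on the plate (-0.40, 1.32-fold lower). Its value lay below the array median of 6.10 in the microchamber and above that of 6.12 on the plate, and 93 of the 1000 genes closest in level were as far apart. Its closest neighbours were Krt80 at 0.04 and the hair keratin Krt81 at -0.31.

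Krt8 and Krt18 lie next to each other on chromosome 15 with no protein-coding gene between them in RefSeq. Krt8 occupies 101996711 to 102004342 and Krt18 occupies 102028216 to 102032026 on GRCm38, with 23873 bases between. Krt8 is read on the minus strand and Krt18 on the plus strand, so the pair points away from each other, and Krt7 lies further along the same cluster at 101412403 to 101427806. The 250 bases before the RefSeq start of each (GRCm38.p6, gene strand, 5′ to 3′) are shown because these are the neighbouring genes of a filament pair and its relative. Krt18 is chr15:102027966-102028215 (+), Krt8 is chr15:102004343-102004592 (-) and Krt7 is chr15:101412153-101412402 (+). Capitals mark matches to the motifs named in the next paragraph.
Krt18: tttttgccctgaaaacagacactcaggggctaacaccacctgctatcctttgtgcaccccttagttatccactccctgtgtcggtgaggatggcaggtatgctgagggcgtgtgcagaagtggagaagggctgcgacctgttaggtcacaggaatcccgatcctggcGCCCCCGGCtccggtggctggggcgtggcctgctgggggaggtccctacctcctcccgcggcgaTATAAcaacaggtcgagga
Krt8: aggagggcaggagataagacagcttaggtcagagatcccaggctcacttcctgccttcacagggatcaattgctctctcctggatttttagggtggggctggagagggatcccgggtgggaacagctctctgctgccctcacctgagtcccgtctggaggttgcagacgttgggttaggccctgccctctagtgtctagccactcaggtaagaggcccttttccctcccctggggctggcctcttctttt
Krt7: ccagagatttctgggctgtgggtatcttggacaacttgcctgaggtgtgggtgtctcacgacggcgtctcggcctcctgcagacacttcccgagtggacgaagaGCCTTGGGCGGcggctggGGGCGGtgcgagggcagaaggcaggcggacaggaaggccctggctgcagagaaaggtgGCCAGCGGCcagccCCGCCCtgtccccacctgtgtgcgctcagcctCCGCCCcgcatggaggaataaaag

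The motifs searched were TATAA (the TATA box, gene strand only) and, on both strands, GGGCGG (the GC box), GCCNNNGGC (bound by AP-2 factors such as TFAP2A and TFAP2C), GGAATG (TEAD factors), ACGTG (the core of the hypoxia response element) and TGANTCA (AP-1). The Krt18 window held a TATAA that begins 19 bases before the start and a single AP-2 match. The Krt7 window held 4 GC boxes and 2 AP-2 matches, the first of which overlaps a GC box. The Krt8 window held no match, although a TATAA begins 1 base before its annotated start and runs past the end of the stretch shown. TATAA was present in 16% of 32851 RefSeq windows of this length and in 17.5% of windows that run 50 bases past the start. The AP-2 letters were in 13.7%, the GC box in 32.7%, the TEAD letters in 12.6%, the hypoxia core in 16.6% and the AP-1 letters in 6.75%. None of the 3 keratin windows held the TEAD, hypoxia or AP-1 letters. Windows of the factors were searched too. That of Cdx2 held an AP-2 match and a hypoxia core, an Elf5 window held a TEAD match, and Tfap2a windows held GC boxes. A match is a string of letters, not a shown binding site. Krt19, Tfap2c, Hand1 and Rhox9 had no promoter entry to search, and the sequences of Cdx2, Elf5 and Tfap2a are not printed.

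The other keratins give the family background. The array measured 45 more keratin genes, 26 on chromosome 11 and 19 on chromosome 15, and 38 of them passed the filter. Of these 38, 19 lay below 0, against 52.3% of all genes past the filter, and 19 above. Krt16 passed the filter only through the plate, where it was higher, so its place below 0 is set by the filter. Their median was 0.00. None reached 1.5-fold, against 2.76% of all genes lower and 2.46% higher. The lowest were Krt79 at -0.20 and Krt81 at -0.31, the last with 6.67 in the microchamber and 6.98 on the plate. The highest were Krt35 at 0.31 and Krt42 at 0.38, the last with 7.22 in the microchamber and 6.84 on the plate. Krt19, Krt18 and Krt7 lay below the lowest of these, and Krt8 lay inside their range. Only 7 of the 38 were above the array median on both arrays, and differences at low signal are narrower, so this range is set partly by genes with little signal.

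**Figure D2:**
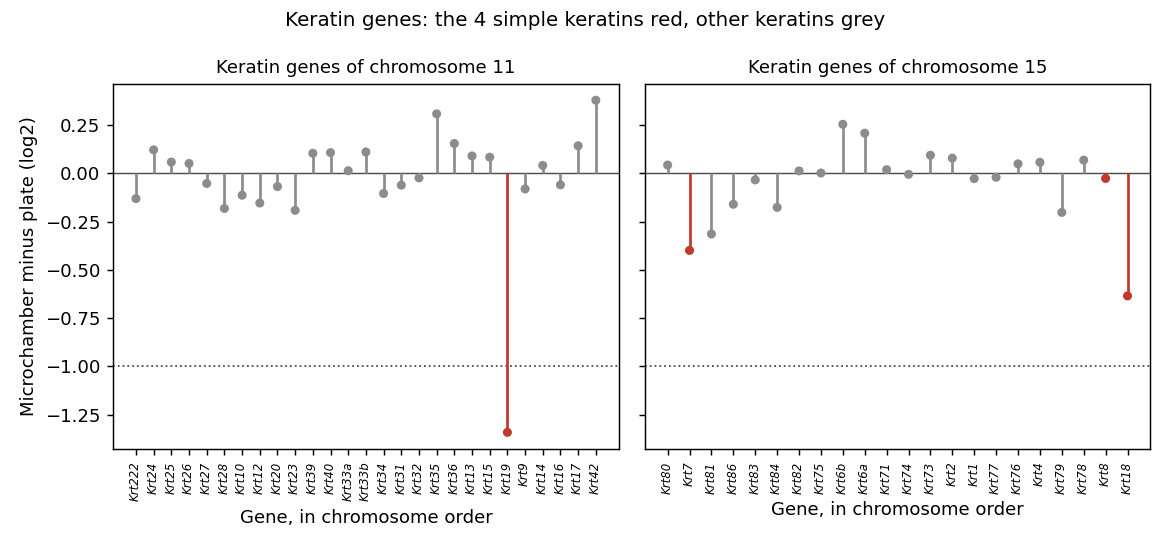
Microchamber minus plate differences (log2) of all keratin genes with a single symbol on chromosome 11 (left) and chromosome 15 (right), in chromosome order, with the 4 simple keratins in red, the others in grey and a dotted line at 2-fold lower. Krt19 at -1.34, Krt18 at -0.63 and Krt7 at -0.40 lie below every other keratin, the lowest of which is Krt81 at -0.31, and Krt8 is at -0.03.

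Among the transcription factors, Tfap2c had the widest difference. TFAP2C, or AP-2 gamma, is needed in trophoblast and germ cells and is also made by embryonic stem cells. Tfap2c had 6.39 in the microchamber and 7.01 on the plate, 1.54-fold lower (-0.62), and 70 of the 1000 genes closest in level were as far apart. It lies on chromosome 2 (172545678 to 172558622). The next measured gene on its far side, Bmp7, a BMP ligand 309389 bases away, was at -0.72, and Gcnt7 on the near side was at -0.17. Tfap2a, which encodes AP-2 alpha of neural crest and surface ectoderm, went the other way at 0.15, with 5.32 in the microchamber and 5.17 on the plate. Its plate value sat at the 20th percentile of 5.16, so this difference is taken against signal near the floor. The other AP-2 genes were at 0.02 for Tfap2b and -0.07 for Tfap2e, and Tfap2d did not pass the filter.

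Hand1, a basic helix-loop-helix factor of trophoblast giant cells and heart, had 6.03 in the microchamber and 6.49 on the plate (-0.46, 1.37-fold lower). It crossed the array median between the arrays, and 80 of the 1000 genes closest in level were as far apart. Its relative Hand2, a heart and limb factor, was at 0.05. The nearest measured neighbours of Hand1 on chromosome 11 were Sap30l at -0.04 and Larp1 at 0.08.

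Cdx2, the homeobox factor that defines trophectoderm, was alike on both arrays, with 5.90 in the microchamber and 5.89 on the plate. Its value lay below the array median on both, at the 45.4th percentile of named probe sets in the microchamber and the 44.9th on the plate. A difference of that size or more was seen in 960 of the 1000 genes closest in level. The related Cdx1 and Cdx4, which pattern the later trunk, were at -0.18 and 0.10 and also lay below the median. Genes of its level group, from 5.67 to 6.70 in mean value, had differences with a standard deviation of 0.24, so a gap as small as that of Cdx2 does not show unchanged expression. Elf5, an ETS factor of trophoblast stem cells, had 5.21 in the microchamber and 5.34 on the plate (-0.13), both just above the 20th percentile, and 221 of the 1000 nearest genes differed as much. Rhox9, a homeobox gene of the X-linked Rhox cluster, had 6.10 in the microchamber and 6.13 on the plate (-0.03), close to the median of each array. The 12 other Rhox genes past the filter lay between -0.22 (Rhox4f, followed by Rhox6 at -0.04) and 0.31 (Rhox2c, preceded by Rhox1 at 0.20). Rhox4f passed the filter only through the plate, where it was higher, so the low end of this range is partly set by the filter. Rhox9 lay within the range. Only 2 of the 19 other Rhox genes on the array were above the array median on both arrays.

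**Figure D3:**
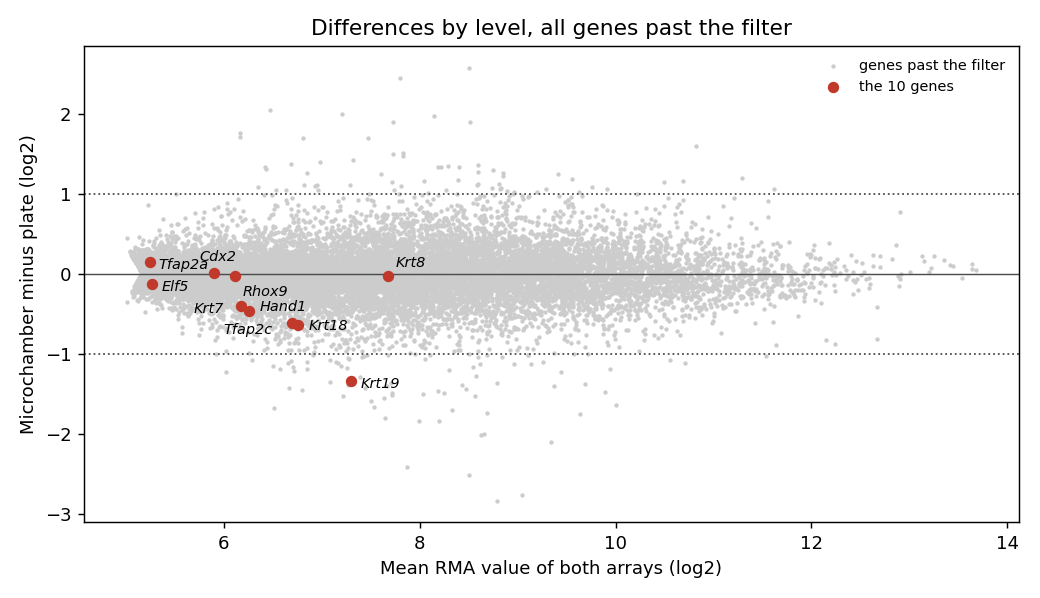
Microchamber minus plate difference (log2) against the mean value of both arrays (log2) for the 19185 genes past the filter (grey) and the 10 genes (red), with dotted lines at 2-fold. Krt19 lies at the lower edge of the cloud at -1.34, Krt18 and Tfap2c lie together near -0.63, and the other 7 lie between -0.46 and 0.15.

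Other trophectoderm and trophoblast genes were compared to place these values. Of 38 such genes, 36 were on the array with a single symbol and 34 passed the filter. In the microchamber 2 of the 34 were at least 2-fold lower, against 0.443% of all genes, and 1 was at least 2-fold higher, against 0.344%. Below 0 lay 23 of the 34, against 52.3% of all genes, and the list median was -0.10. Gcm1 passed the filter only through the plate and Tspan8 only through the microchamber, so the filter set their signs. Elf3, an epithelial ETS factor related to ELF5, had 7.28 in the microchamber and 8.79 on the plate, 2.83-fold lower (-1.50). Ascl2, which maintains the spongiotrophoblast, had 6.73 in the microchamber and 8.16 on the plate, 2.70-fold lower (-1.43). The gene above 2-fold was Cited2, a transcriptional co-regulator needed for placental growth, with 11.07 in the microchamber and 9.92 on the plate (1.15). The next highest was Tead4, the factor upstream of Cdx2, at 0.59, with 8.68 in the microchamber and 8.09 on the plate. Of the 36 genes on the array, 20 lay above the array median on both arrays. Gata3 and Eomes, trophectoderm factors picked after their values were seen, were nearer the median, with Gata3 at 6.09 in the microchamber and 6.12 on the plate and Eomes at 6.03 in the microchamber and 6.34 on the plate.

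Genes that act before Cdx2 were almost evenly split. Of 27 HIPPO, TEAD, signalling and pluripotency genes, 12 lay below 0, against 52.3% of all genes, and 15 above, with a median of 0.04. The list pools genes that drive Cdx2, such as Tead4, with genes that oppose it, such as Pou5f1. Its split and median are therefore no measure of the input to Cdx2. Bmp4, a ligand that induces trophoblast genes in cultured stem cells, was the only member past 2-fold, against 0.344% of all genes 2-fold higher. It had 11.89 in the microchamber and 10.69 on the plate (1.20). The lowest were Tead2 at -0.43 and the HIPPO kinase gene Stk3 at -0.41. Pou5f1, which encodes OCT4, had 8.10 in the microchamber and 7.74 on the plate (0.36). Among the relatives of the 6 factors, 1 of 9 past the filter was 2-fold lower, namely Elf3, against 0.443% of all genes. Of the 9, 5 lay below 0, against 52.3% of all genes. Several genes, among them Elf3, Tead4 and Eomes, are on more than 1 list and count in each. The ETS factors Elf4 at -0.35 and Elf1 at 0.31 were next in each direction.

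The genes that anchor keratins differed in both directions. Of 16 desmosome, plakin and keratin-binding genes past the filter, 11 lay below 0, against 52.3% of all genes, with a median of -0.11. Dsc3 passed the filter only through the plate, where it was higher, so its place below 0 is set by the filter. At least 2-fold lower was 1, against 0.443% of all genes, and 0 were 2-fold higher, against 0.344%. Pkp2, a desmosome plaque protein, had 8.40 in the microchamber and 9.53 on the plate, 2.19-fold lower (-1.13), and Perp, a desmosome membrane protein, was at -0.59. Jup, the plaque protein plakoglobin, was higher at 0.69, with 9.38 in the microchamber and 8.69 on the plate, and Dst, a plakin, was at 0.54. Among 24 epithelial junction genes and regulators, 21 lay below 0, against 52.3% of all genes, with a median of -0.26, and 0 reached 2-fold. The tight junction genes Cldn6 and Ocln were lowest at -0.85 and -0.66, and the splicing regulator Esrp2 and the trafficking gene Rab25 were highest at 0.44 and 0.13. Cdh1, which encodes E-cadherin, was at -0.12. Of 15 intermediate filament genes other than keratins, 11 lay below 0, against 52.3% of all genes, with a median of -0.10. Nes (nestin) at -0.70 and Synm (synemin) at -0.59 were lowest, and Vim was at -0.36. Bfsp2 and Nefm were highest at 0.23 each from low signal. Both passed the filter only through the microchamber, where they were higher, so their place in this list is partly set by the filter.

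**Figure D4:**
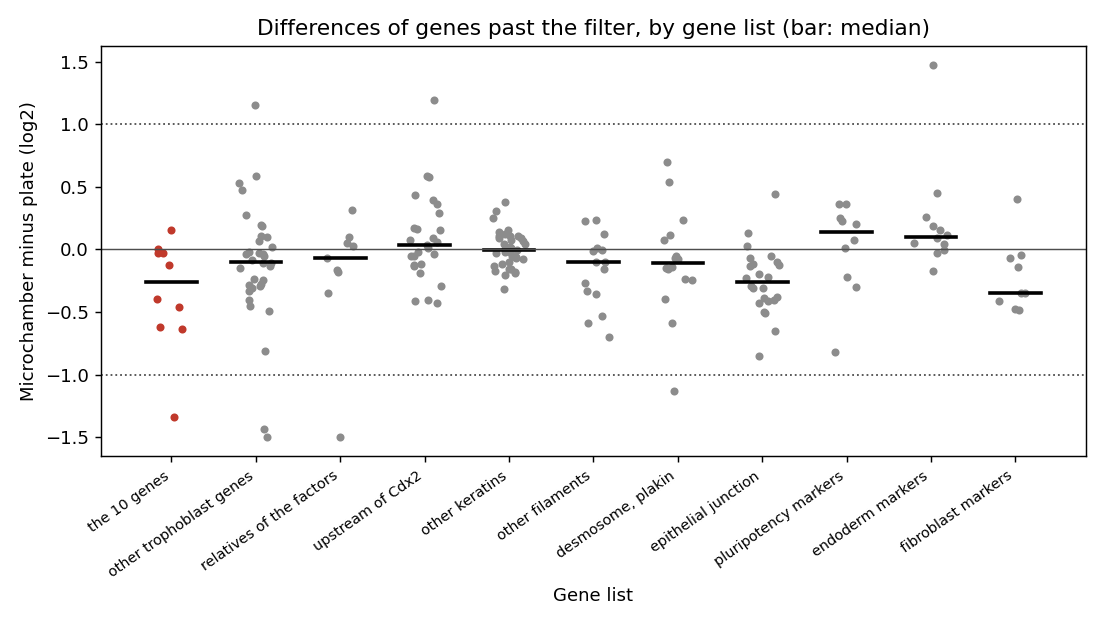
Microchamber minus plate differences (log2) of genes past the filter in each list, with 1 point per gene, the list median as a black bar and dotted lines at 2-fold. The 10 genes (red) have a median of -0.26, fibroblast markers have -0.35, and endoderm and pluripotency markers have 0.10 and 0.14.

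Markers of other cell types were read beside these values. All 10 pluripotency markers lay above the array median on both arrays, with a list median level of 11.20 in the microchamber and 11.14 on the plate. Against 9003 of the 19185 genes past the filter, 7 of these 10 markers had differences above 0 (median 0.14). Their lowest were Tdgf1, a Nodal co-receptor, at -0.82 and Dppa5a at -0.30, and their highest were Klf4 at 0.37 and Pou5f1 at 0.36. Endoderm makes KRT8, KRT18 and KRT19 too. Of 12 endoderm markers 9 lay above 0 (median 0.10), again against 9003 of 19185 genes. Cubn, an endocytic receptor, was the only one past 2-fold (1.48), against 0.344% of all genes 2-fold higher. Dab2, an endocytic adaptor, followed at 0.45, and the lowest were Gata6 at -0.17 and Afp at -0.03. The list median level of the endoderm markers was 6.59 in the microchamber and 6.56 on the plate. Fibroblast and feeder markers were mostly lower. Of these markers 8 of 9 past the filter lay below 0, against 52.3% of all genes. Their median was -0.35, or -0.14 over all 11 with no filter. The lowest fibroblast markers were Pdgfrb at -0.49 and Twist2 at -0.48. The median level over 11 of these markers was 5.83 in the microchamber and 5.90 on the plate. Their highest were S100a4 at 0.40 and Col1a2 at -0.05, and the collagens Col1a1 and Col3a1 were at -0.14 and -0.07. Surface ectoderm markers, none above the array median on both arrays (4 past the filter, from Trp63 at -0.02 and Ivl at -0.01 to Krt14 at 0.04 and Lor at 0.06), had low signal. Of 7 mesoderm markers 3 lay above the array median on both arrays. Differences of 5 of the 7 lay below 0, against 52.3% of all genes (median -0.15). The lowest mesoderm markers were Eomes at -0.31 and Tbx6 at -0.30, and the highest were Mesp1 at 0.09 and Gsc at 0.04. RMA values have no zero, so no marker can be said to be absent, and the part of any of these cell types in the keratin differences was not tested.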

How the data were processed

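Total RNA of 2 cultures was hybridised to 1 array each. The authors corrected, summarised and normalized the probe intensities by RMA to log2 values, per the series design text, where raw signal below the 20th percentile is said to have been filtered out. Their deposited table has a log2 fold change as well (plate minus chamber) and an absolute fold as a ratio, per the file headers, with mm10 annotation. Transcriptome Analysis Console 3.0 and Expression Console 1.4.1, both by Affymetrix, were used per the submitters' processing notes. RMA gives the probe intensities of both arrays the same distribution, so a shift of most genes 1 way would not be visible.

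Of 33793 probe sets, 24707 with a single symbol were averaged per gene (pandas 2.3.3). No row with several symbols held any of the 10 genes. A gene passed the filter when its value on either array reached that array's 20th percentile over named probe sets, 5.17 in the microchamber and 5.16 on the plate. All 10 genes matched RefSeq symbols of GRCm38, and 6 had a promoter entry. Counting was tested on simulated data. The number of arrays limits the precision.

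The members and lists were chosen with earlier results of these data known. Named were the 10 genes, list genes past 2-fold with the highest and lowest 2 of each list, and the 3 genes nearest to a member past 2-fold. Genomic neighbours and other list members were chosen after their values were seen. Alternatives were the filter, centring, a lowess trend (span 0.3, statsmodels 0.14.6), the choice of probe set, the value table of the series, shared probe sets and the fold limit.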

Additional observations from a re-analysis of the deposited data

How the results depend on the processing

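With the limit at 1.5-fold, 3 of the 10 genes were lower, against 1 at 2-fold. With the filter at the array median, 7 genes were left and their median difference was -0.46, against -0.26 for 10 genes. Krt7 and Hand1 passed that filter only through the plate, where they were higher, and -0.46 is the value of Hand1 itself, so this median is partly set by the differences it summarises. The count below 0 was 7 of those 7, of which Krt7 and Hand1 could only lie below 0. It was 7 of 10 after the lowess trend was removed and 8 of 10 under the other alternatives. The share of all genes below 0, 52.3%, belongs to the main setting only. The median of the 10 stayed between -0.26 and -0.25. The differences of single genes moved by at most 0.04 in 77 recalculations, and Krt8 changed sign in 1 of them, at 0.01 after the lowess trend was removed. Krt19 stayed between -1.34 and -1.30, Krt18 between -0.64 and -0.59 and Tfap2c between -0.62 and -0.58. The dimmest probe set was added after seeing the data. For the other lists, 15 recalculated counts moved by over 1.5 times or from 0, 7 of them through the lower fold limit. The filter and the shared probe sets also change how many genes a list holds, so a moved count need not be a moved share. Fibroblast markers below 0, for example, went from 8 of 9 to 5 of 5 with the filter at the array median. Of those 5, Twist1 passed only through the plate, where it was higher, so it could only lie below 0. Of the medians, 6 moved by more than the within-gene spread of 0.20 divided by the square root of the list size. The fibroblast median was -0.14 with no filter, against -0.35. With the filter at the array median, the median of other trophoblast genes was -0.28 over 21 genes (against -0.10 over 34). Other intermediate filaments had -0.27 over 11 (against -0.10 over 15), and the factors' relatives had -0.16 over 5 (against -0.07 over 9). Other keratins had 0.06 over 8 (against 0.00 over 38), and other Rhox genes had 0.09 over only 2 (against 0.02 over 12). Eomes passed that filter only through the plate and Krt78 only through the microchamber, each where it was higher. The trophoblast and keratin medians are therefore partly set by the filter. No paired analysis was possible because each group had 1 array. Genes near the 20th percentile, Elf5 and Tfap2a, have little signal over background, which limits what their differences can show.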
